A study of Mus musculus with 11 samples.

Results

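Markers of connective tissue cells and small proteoglycans of the extracellular matrix were examined in cultured mouse myoblasts with and without the clock gene Bmal1. The set held 10 genes, Bgn, Dcn, Lum, Fbln2, Gsn, Cd34, Ly6a, Thy1, Twist2 and Pparg. They were chosen by name with earlier results of these data known, so the shares of all genes below give only a scale. Their Ensembl identifiers were found among the 22104 genes of the deposited table. All 10 were lower in every knockout library than in every wild-type library, which held for 6.28% of all tested genes. Lum is among the 10 although it passed the filter on low values only through its wild-type libraries. In normoxia 9 of the 10 fell with genotype (all but Lum, against 5.66% of tested genes), and in hypoxia 9 fell (all but Dcn, against 5.61%). The normoxia count was 6 with DESeq2 and 5 with only the 2 groups compared in the fit. Under these settings 755 and 555 of the 14729 tested genes fell, against 833 in the main fit. Fbln2 was at 45.7% and Bgn at 53.6% of the wild-type mean in normoxia. Of the 10, only Cd34 passed the test for low oxygen, rising in knockout cells, where 3.15% of tested genes rose.

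Primary myoblasts, the dividing precursor cells of muscle fibres, were grown from the tibialis anterior (a muscle of the lower leg) of C57BL/6 mice about 8 weeks old, with 20% FBS and 2.5 ng/ml bFGF added to the Ham's F-10 medium. Donors were wild-type or Bmal1-/-, and the labels name neither the deleted part of the gene nor the cells in which it was deleted. Cultures spent 6 h at 21% O2 (normoxia) or 1% O2 (hypoxia) before total RNA was taken, which gave 2 wild-type and 3 knockout libraries in normoxia and 3 of each genotype in hypoxia. Nothing in the labels says whether replicates are different animals or cultures, so the p-values rest on a spread among libraries that may be only technical.

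Skeletal muscle holds, besides its fibres and satellite cells, connective tissue cells known as fibro-adipogenic progenitors. These cells lay down matrix, can turn into fibroblasts or adipocytes, and are sorted by the surface antigens CD34, SCA-1 (the product of Ly6a) and CD90 (the product of Thy1). Small leucine-rich proteoglycans such as biglycan, decorin and lumican bind collagen fibrils and growth factors in that matrix. Several of these genes are also active in other cells, myoblasts included. In bulk RNA, fewer cells of a type and less RNA per cell cannot be told apart.

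Values below are normalized read counts, which are the reads of a gene divided by 1 size factor per library. Library totals ran from 18707697 to 21451760 reads in normoxia and from 23027613 to 33613328 in hypoxia, with no overlap between the oxygen levels. Arntl, the gene symbol of Bmal1, had 264 and 267 normalized counts in the normoxic and 322 to 328 in the hypoxic wild-type libraries and 98.8 to 134 in the 6 knockout libraries, so reads on it remained. Myoblast genes were abundant in all groups, with group means of 8280 to 9313 normalized counts for Myod1 and 7375 to 8144 for Des. All 11 libraries expressed Y-linked genes, which bears on Bgn because it lies on the X chromosome. The test covered the 14729 genes that reached 10 normalized counts in 2 or more libraries and used limma on log2(value + 1) and Benjamini-Hochberg adjustment over all of them. On that scale changes of genes with few reads come out too small. Rose and fell are used for differences with an adjusted p under 0.05. All 10 members passed the filter on low values, Lum only through its wild-type libraries, where it is higher.

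Since the members moved together, the sequence before their RefSeq starts was searched for motifs of clock, oxygen and other factors. The promoter table, from RefSeq on GRCm38.p6, held 10 windows for 6 members (Cd34, Bgn, Fbln2, Twist2, Gsn and Pparg), and the 250 bases before each start were read on both strands. By the GENCODE gene models some of this is exon rather than upstream sequence: all 250 bases for Fbln2, 193 and 57 bases in 2 of the Pparg windows, and 2 bases for Cd34. The E-box CACGTG, bound by BMAL1 with CLOCK, was in 0 of the 10 windows and in 6.02% of all 32851 windows. The looser E-box CANNTG, which includes CACGTG and is also read by MYOD and TWIST proteins, was in 7 of 10 windows and in 66.2% of all. ACGTG, one core of the hypoxia response element, was in 0 of 10 (16.6% of all), and GCGTG, the other, was in 2 of 10 (28.2%). The looser form of CACGTG in which the third and the fifth letter are each C or T had a match in 1 of 10 windows (27.4%). AGGTCA, the core of many nuclear receptor sites, was in 2 (14.0%), and TATAAA was in 1 (12.4%). A missing match says only that these letters were not in the window. Printed below are the windows of the member with the highest level (Bgn) and of the member that rose with hypoxia in knockout cells (Cd34). The first of 3 windows of Gsn follows. All are on the plus strand, with matches to CANNTG or GCGTG in capitals.
Bgn, chrX:73483351-73483600: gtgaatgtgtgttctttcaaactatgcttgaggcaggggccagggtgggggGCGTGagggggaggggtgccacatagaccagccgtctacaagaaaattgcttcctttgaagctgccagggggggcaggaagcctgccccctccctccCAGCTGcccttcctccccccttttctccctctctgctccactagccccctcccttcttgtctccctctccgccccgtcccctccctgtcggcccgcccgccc
Cd34, chr1:194938571-194938820: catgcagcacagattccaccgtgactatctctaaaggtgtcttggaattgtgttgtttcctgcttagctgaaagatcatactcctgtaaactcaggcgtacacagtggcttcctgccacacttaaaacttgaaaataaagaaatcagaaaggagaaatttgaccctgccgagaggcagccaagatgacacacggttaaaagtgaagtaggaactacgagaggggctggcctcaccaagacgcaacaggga
Gsn, chr2:35256109-35256358: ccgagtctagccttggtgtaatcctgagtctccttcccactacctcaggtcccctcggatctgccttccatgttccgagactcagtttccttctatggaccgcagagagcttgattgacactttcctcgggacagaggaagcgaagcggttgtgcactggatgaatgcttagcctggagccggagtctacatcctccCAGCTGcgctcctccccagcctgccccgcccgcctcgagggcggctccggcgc
Counted from the start, where the last base before it is -1, the Bgn window held GCGTG from position -199 and an E-box from -102. The Gsn window held an E-box from -53, and the Cd34 window held neither.

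Bgn encodes biglycan, a small proteoglycan with chondroitin or dermatan sulfate chains (ENSMUSG00000031375, chrX:73483602-73495933, GRCm38, protein-coding). In normoxia its normalized counts were 10296 and 11025 in wild-type and 5705, 5300 and 6126 in knockout cells. In hypoxia they were 10165, 9448 and 10375 in wild-type and 5505, 5432 and 5739 in knockout cells. The genotypes did not overlap, and all wild-type libraries stood far above all knockout libraries. The knockout mean was 53.6% of the wild-type mean in normoxia and 55.6% in hypoxia. In normoxia the log2 difference was -0.90 (SE 0.06, adjusted p = 6e-07, limma with Benjamini-Hochberg adjustment), and under hypoxia it was -0.85 (SE 0.05, adjusted p = 2.67e-07).

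Of the tested genes, 5.66% fell and 3.44% rose with genotype in normoxia, and 5.61% fell and 3.33% rose in hypoxia. Against these shares, 9 of 10 members fell and 0 rose in each comparison. The members were chosen with earlier results of these data known, so the shares give a scale and are not a test of the set. Over all genes 833 fell in normoxia, and 532 or 439 fell without wild-type normoxia replicate 1 or 2. The median log2 difference of the members was -0.77 in normoxia and -0.72 in hypoxia, and that of all tested genes was 0.0049 and 0.0045. Every knockout library lay below every wild-type library for 10 of 10 members and for 6.28% of the tested genes. Lum is counted here and among the 9 in hypoxia, though it passed the filter only through its wild-type libraries, where it is higher.

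**Figure D1:**
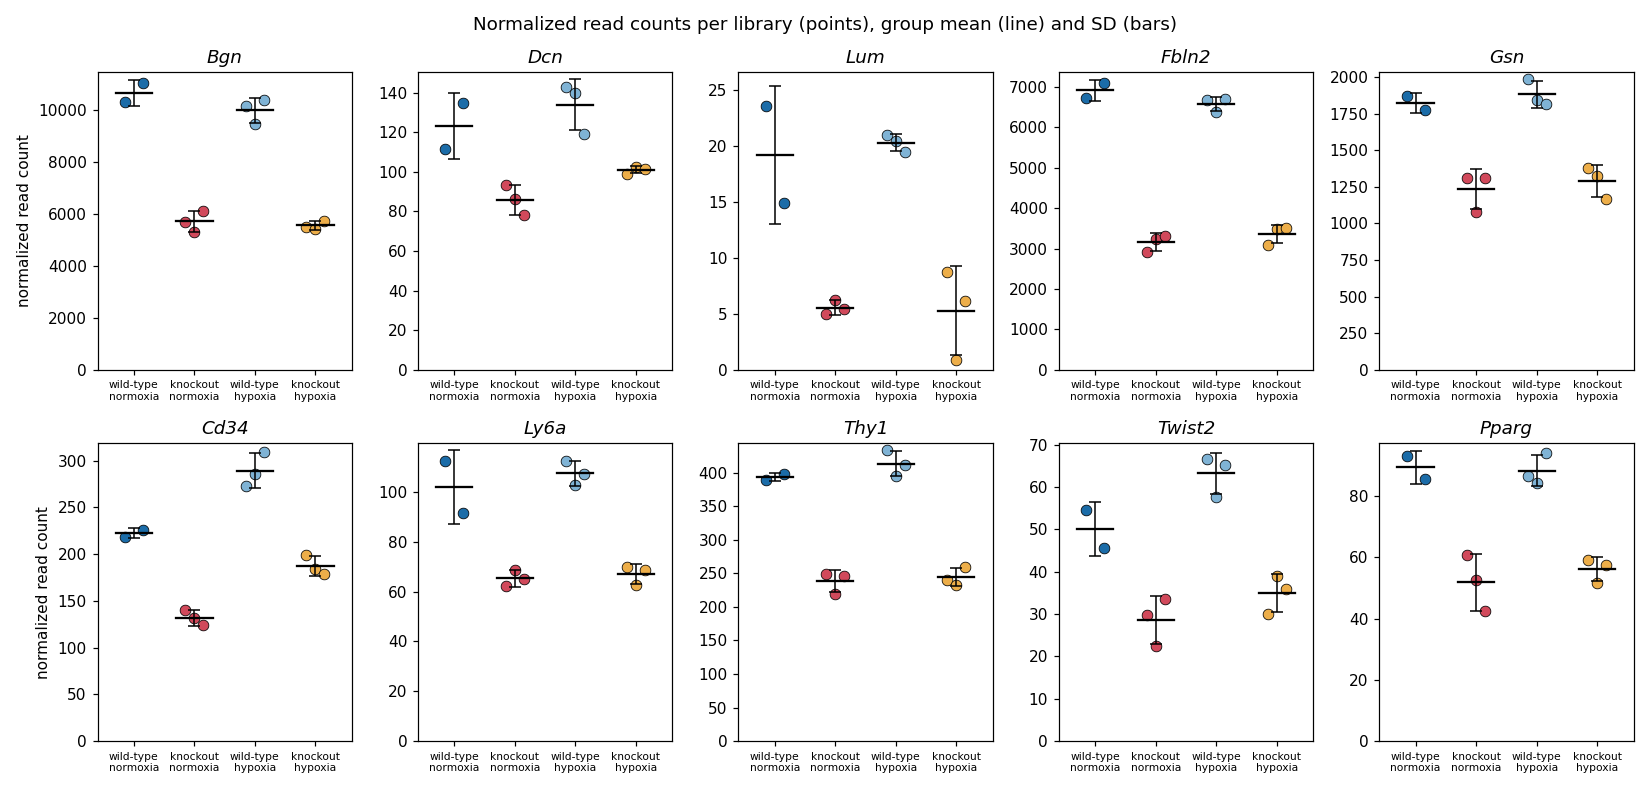
Normalized read counts (vertical axes, from 0) of the 10 genes in each of the 11 libraries, by genotype and oxygen level. Points are libraries, lines group means and bars SD. In each panel all 6 knockout points lie below all 5 wild-type points, and Lum is under 25 normalized counts throughout.

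Dcn encodes decorin, which shapes collagen fibrils and binds TGF-beta (ENSMUSG00000019929, chr10:97479609-97518143). It had 111 and 135 normalized counts in wild-type normoxia against 93.1, 86.2 and 78.2 in knockout normoxia. The hypoxia values were 143, 140 and 119 in wild-type and 98.9, 103 and 101 in knockout cells. The genotypes were separate but close, with the lowest wild-type library at 111 and the highest knockout library at 103. In normoxia Dcn fell by 0.51 on the log2 scale (SE 0.14, adjusted p = 0.0341, limma), and its difference in hypoxia was -0.40 (SE 0.12, adjusted p = 0.0637), short of the threshold. The normoxia call was lost without wild-type replicate 2 (adjusted p = 0.279) or without knockout replicate 2 (0.0723) or 3 (0.0802), and with DESeq2 (0.102).

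Lum encodes lumican, a keratan sulfate proteoglycan of collagen-rich tissues (ENSMUSG00000036446, chr10:97565128-97572703), and lies near Dcn on chromosome 10. Counts were low. In normoxia the wild-type libraries had 22 and 13 reads and the knockout libraries 4, 5 and 5. In hypoxia these were 22, 29 and 25 reads against 9, 1 and 6. As normalized counts these were 23.6 and 14.8 against 4.96, 6.25 and 5.43 in normoxia, and 21.0, 20.4 and 19.4 against 8.73, 0.91 and 6.15 in hypoxia. The genotypes did not overlap, and knockout replicate 2 in hypoxia was the lowest library. In hypoxia Lum fell by 2.06 on the log2 scale (SE 0.51, adjusted p = 0.0202, limma), while the normoxia difference of -1.60 (SE 0.57, adjusted p = 0.102) did not pass. The hypoxia call was lost when any of the 3 wild-type hypoxia libraries was left out (adjusted p 0.0576 to 0.0642, limma). Leaving out knockout hypoxia replicate 2, the library with 1 read, moved the hypoxia difference to -1.35. In normoxia the difference passed without knockout hypoxia replicate 2 (adjusted p = 0.0153), which enters that comparison through the shared estimate of the spread.

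Fbln2 encodes fibulin-2, a glycoprotein of basement membranes and elastic fibres (ENSMUSG00000064080, chr6:91212455-91272540). It had 6740 and 7092 normalized counts in wild-type normoxia and 2923, 3246 and 3323 in knockout normoxia. In hypoxia the wild-type libraries held 6671, 6378 and 6695 and the knockout libraries 3098, 3478 and 3516. All wild-type libraries were above all knockout libraries by a wide margin. The log2 difference was -1.13 (SE 0.06, adjusted p = 1.25e-07, limma) at 21% O2 and -0.97 (SE 0.06, adjusted p = 1.34e-07) at 1% O2. The knockout means were 45.7% and 51.1% of the wild-type means.

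Gsn encodes gelsolin, which severs actin filaments and is also secreted (ENSMUSG00000026879, chr2:35256380-35307892). Wild-type normoxia libraries had 1871 and 1774 normalized counts and knockout normoxia libraries 1314, 1081 and 1313. The hypoxia values were 1991, 1841 and 1816 against 1379, 1323 and 1170. On the log2 scale Gsn fell by 0.57 at 21% O2 (SE 0.09, adjusted p = 0.00119, limma), and at 1% O2 it fell by 0.55 (SE 0.08, adjusted p = 0.000499). The knockout level was 67.8% and 68.6% of wild-type, and the genotypes did not overlap.

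Cd34 encodes a sialomucin found on blood stem cells, endothelium, muscle satellite cells and fibro-adipogenic progenitors (ENSMUSG00000016494, chr1:194938819-194961279). In normoxia its normalized counts were 218 and 226 in wild-type and 140, 131 and 124 in knockout cells. In hypoxia they were 273, 286 and 309 in wild-type and 199, 184 and 178 in knockout cells. The knockout libraries in hypoxia lay between the knockout and the wild-type libraries in normoxia, with no overlap between any of the 4 groups. Its log2 difference with genotype was -0.75 (SE 0.10, adjusted p = 0.000304, limma) at 21% O2 and -0.63 (SE 0.09, adjusted p = 0.000476) at 1% O2. On the opposite strand Gm16897, with 0 to 6.43 normalized counts, covers 148 exon bases of Cd34.

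Ly6a encodes SCA-1, a GPI-anchored antigen used to sort progenitor cells (ENSMUSG00000075602, chr15:74994877-74998031). Wild-type libraries had 112 and 91.3 normalized counts in normoxia and 112, 103 and 107 in hypoxia. Knockout libraries had 62.1, 68.7 and 65.1 in normoxia and 69.8, 62.7 and 68.7 in hypoxia, all below the wild-type values. The log2 difference was -0.63 (SE 0.14, adjusted p = 0.0136, limma) in normoxia, and this call did not hold without wild-type replicate 1 (adjusted p = 0.148) or with DESeq2 (0.0532). In hypoxia it was -0.67 (SE 0.13, adjusted p = 0.00374). Of the 50-base windows of its transcripts, 19.0% are also found in other genes, mainly of the Ly6 family, so part of its reads could be split with them.

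Thy1 encodes CD90, a GPI-anchored antigen of fibroblasts, neurons and T cells (ENSMUSG00000032011, chr9:44043384-44048579). Normoxic libraries held 390 and 398 normalized counts in wild-type and 249, 220 and 246 in knockout cells. Hypoxic libraries held 434, 396 and 412 against 241, 233 and 259. Wild-type libraries were all high and knockout libraries all low at either oxygen level. The log2 difference was -0.72 (SE 0.09, adjusted p = 0.000126, limma) at 21% O2 and -0.76 (SE 0.08, adjusted p = 2.63e-05) at 1% O2. The knockout level was 60.5% and 59.1% of wild-type.

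Twist2 encodes a bHLH transcription factor of mesenchymal cells that can restrain myogenic factors (ENSMUSG00000007805, chr1:91801461-91848028). Reads were few, with 40 to 84 in the wild-type and 18 to 43 in the knockout libraries. The normalized counts were 54.6 and 45.7 against 29.8, 22.5 and 33.6 in normoxia, and 66.7, 57.6 and 65.3 against 30.1, 39.1 and 35.9 in hypoxia, wild-type first. Knockout values were all below wild-type values. The log2 difference was -0.80 in normoxia (SE 0.22, adjusted p = 0.034, limma) and -0.84 in hypoxia (SE 0.19, adjusted p = 0.0136). The normoxia call was lost without wild-type replicate 1 (adjusted p = 0.205) or 2 (0.0873), without knockout replicate 1 (0.0587) or 2 (0.103), and with DESeq2 (0.116), and the hypoxia call without wild-type replicate 1 (0.0544) or 3 (0.0526) or knockout replicate 1 (0.0605). The gene Gm29100 covers 1477 exon bases of Twist2 on the opposite strand, with 0 to 6.85 normalized counts, and whether the counting used strand is not given in the sources used here.

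Pparg encodes PPAR-gamma, the nuclear receptor that drives adipocyte formation (ENSMUSG00000000440, chr6:115360951-115490399). In normoxia 93.2 and 85.6 normalized counts in wild-type cells stood against 60.8, 52.5 and 42.3 in knockout cells. The hypoxia values were 86.7, 84.3 and 94.1 against 59.2, 51.8 and 57.4. The genotypes did not overlap. The log2 difference was -0.79 in normoxia (SE 0.17, adjusted p = 0.0103, limma) and -0.65 in hypoxia (SE 0.15, adjusted p = 0.0161). The normoxia call was lost without wild-type replicate 1 (adjusted p = 0.0875) or 2 (0.0524), and the hypoxia call without wild-type replicate 3 (0.0652) or knockout replicate 2 (0.07).

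**Figure D2:**
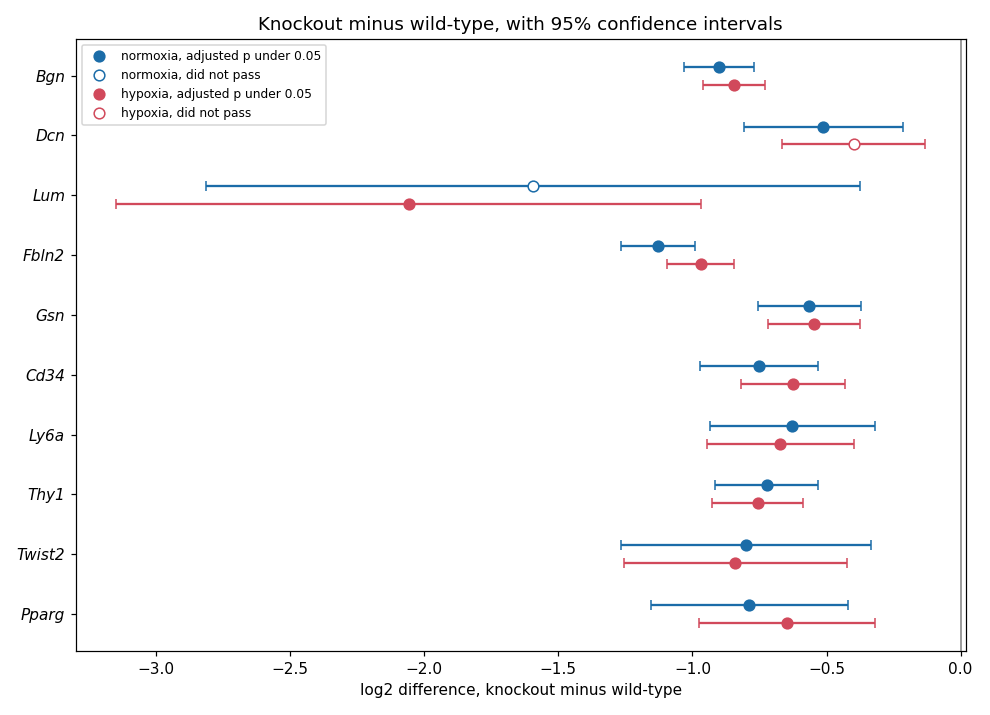
Log2 difference between knockout and wild-type (horizontal axis) for each gene in normoxia and hypoxia, with 95% confidence intervals from limma. Filled points passed at an adjusted p under 0.05. All 20 intervals lie below 0, and the widest belong to Lum, the gene with the fewest reads.

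The second comparison asked how the same genes responded to 6 h of low oxygen. In wild-type cells 1.7% of the tested genes rose with hypoxia and 0.468% fell, and in knockout cells 3.15% rose and 0.937% fell. No member passed in wild-type cells with limma, edgeR or DESeq2, and 1 of 10, Cd34, had an unadjusted p under 0.05 there. In knockout cells 1 of 10 rose, again Cd34, and 0 fell. The members' median log2 change was 0.08 in each genotype.

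In knockout cells the normalized count of Cd34 was 132 ± 8.27 (SD, n = 3) in normoxia and 187 ± 10.5 (SD, n = 3) in hypoxia, 1.42-fold higher, with all 3 hypoxia libraries above all 3 normoxia libraries. The log2 change was 0.50 (SE 0.09, adjusted p = 0.00587, limma), and the call held in each of the 21 alternatives run. In wild-type cells it was 222 ± 5.38 (SD, n = 2) and 289 ± 18.6 (SD, n = 3), again without overlap, for a log2 change of 0.38 (SE 0.10) that missed the threshold (adjusted p = 0.0845). The difference between these changes was 0.13 (SE 0.14, adjusted p = 0.936), with a 95% confidence interval from -0.17 to 0.42. The hypoxia libraries were also all deeper than the normoxia libraries, and sequencing depth and oxygen cannot be told apart in this design.

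The members with the highest levels, Bgn, Fbln2 and Gsn, had narrow intervals around no change. Bgn changed by -0.09 (95% confidence interval -0.22 to 0.04) in wild-type and -0.04 (-0.15 to 0.08) in knockout hypoxia on the log2 scale. Fbln2 changed by -0.07 (-0.21 to 0.07) and 0.09 (-0.04 to 0.21), and Gsn by 0.05 (-0.15 to 0.24) and 0.07 (-0.11 to 0.24). The interval was wide for Twist2, at 0.33 (-0.13 to 0.80) and 0.29 (-0.13 to 0.71), and widest for Lum, at 0.11 (-1.11 to 1.33) and -0.36 (-1.45 to 0.73), the member with the fewest reads.

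**Figure D3:**
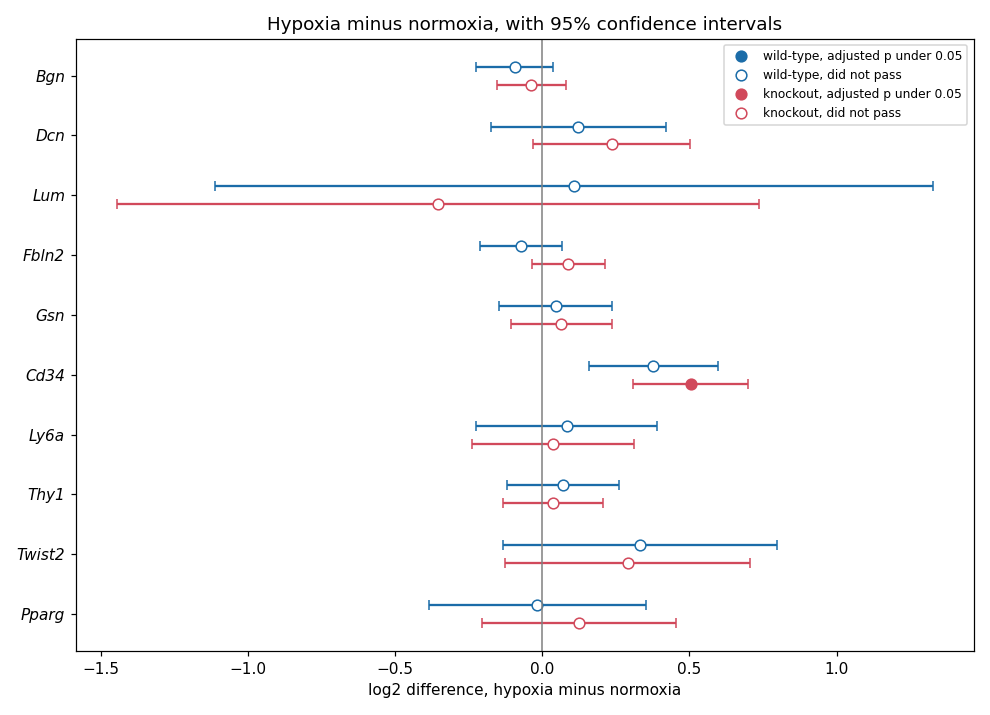
Log2 difference between hypoxia and normoxia (horizontal axis) for each gene in wild-type and knockout cells, with 95% confidence intervals from limma. The filled point is Cd34 in knockout cells at 0.50, and the other intervals include 0 except that of Cd34 in wild-type cells, which did not pass after adjustment.

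The third comparison was the difference between the genotypes' responses to hypoxia. It passed for 0 of 10 members with limma, edgeR or DESeq2, and 0 had an unadjusted p under 0.05. Of all tested genes 0.00679% passed, which is 1 gene. The largest of the better measured members was Fbln2 at 0.16 on the log2 scale (95% confidence interval -0.03 to 0.35, adjusted p = 0.917, limma). For Bgn the interval ran from -0.12 to 0.23 and for Thy1 from -0.29 to 0.22, and these bounds, not the p, limit how far the responses could differ.

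Levels of different genes were compared per kilobase of exon, with the exons of all annotated transcripts of a gene merged. The order of the genes depends on these lengths. Bgn was the highest, at 1748 ± 84.5 (SD, n = 2) normalized counts per kb in wild-type normoxia and 936 ± 67.8 (SD, n = 3) in knockout normoxia. In the same groups, with SD over the same libraries, Fbln2 followed at 1086 ± 39.0 and 497 ± 33.3 and Gsn at 577 ± 21.6 and 392 ± 42.6. Thy1 had 132 ± 2.05 and 79.7 ± 5.43, Ly6a 84.5 ± 12.4 and 54.2 ± 2.76, and Cd34 30.5 ± 0.74 and 18.1 ± 1.13. The lowest were Pparg at 30.3 ± 1.80 and 17.6 ± 3.13, Dcn at 21.1 ± 2.83 and 14.7 ± 1.28, Twist2 at 15.8 ± 1.99 and 9.02 ± 1.79, and Lum at 7.84 ± 2.52 and 2.27 ± 0.27. The order of the group means was the same in all 4 groups. Neighbours whose libraries overlapped were Cd34 and Pparg in both normoxia groups, Pparg and Dcn in both knockout groups, and Dcn and Twist2 in wild-type hypoxia. Bgn and Dcn, which encode proteoglycans of the same class, stood far apart in this order, with merged exon lengths of 6099 and 5838 bases.

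**Figure D4:**
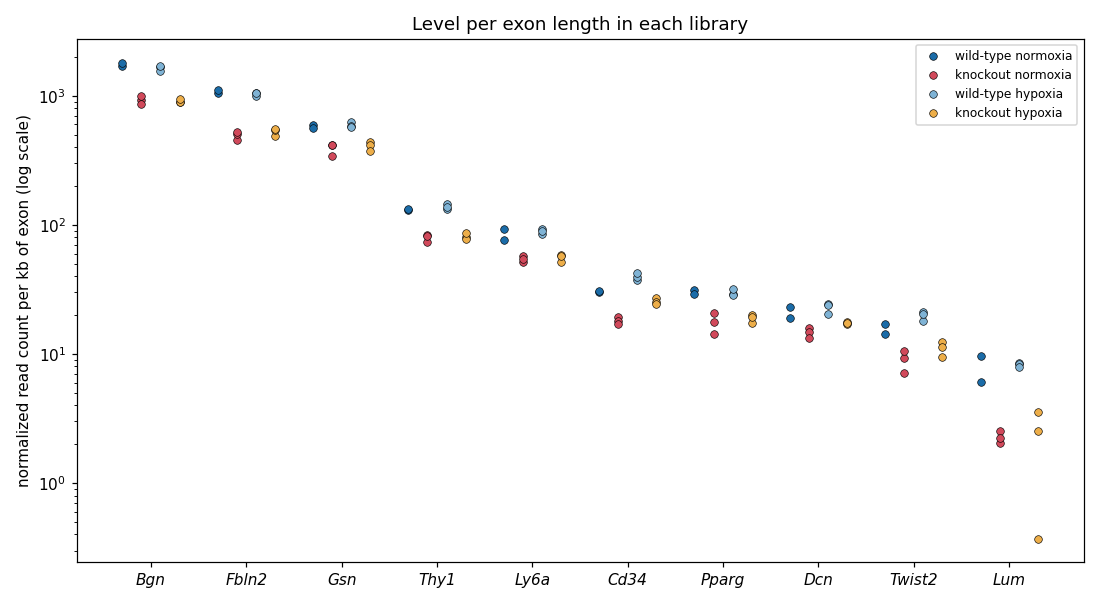
Normalized read count per kb of exon (log scale) for each gene and library, ordered by the group means. Bgn, Fbln2 and Gsn lie above 300 in every library and Lum lies below 10, with the knockout points under the wild-type points of each gene.

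Other genes of the same cells and pathways were read from lists. Beside the counts of each list below stand the shares of all tested genes with genotype. These were 5.66% fallen and 3.44% risen in normoxia, and 5.61% fallen and 3.33% risen in hypoxia. Of 25 further fibroblast and fibro-adipogenic markers, 24 were in the table and 20 were tested, of which 12 fell and 0 rose with genotype in normoxia, and 14 fell and 0 rose in hypoxia. The list's median log2 difference was -0.79 and -0.68. In hypoxia Cxcl14, a chemokine of fibroblasts, fell by 2.67 (SE 0.13) on the log2 scale. Pdgfra, the receptor used to define fibro-adipogenic progenitors, fell by 1.29 (SE 0.07), and Smoc2, a matrix protein, fell by 1.23 (SE 0.06). Pdgfra had 685 to 700 normalized counts in wild-type and 251 to 277 in knockout normoxia.

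Relatives of single members were read the same way. Of 7 other small leucine-rich proteoglycans tested, 2 fell and 0 rose at each oxygen level, with medians of -0.51 and -0.32. They were Aspn (asporin), which fell by 1.84 (SE 0.30) in normoxia, and Tsku (tsukushi), which fell by 0.42 (SE 0.08). Of 7 other fibulins 2 fell at each oxygen level, with medians of -0.29 and -0.27. In hypoxia Efemp1 fell by 2.14 (SE 0.18) and Efemp2 fell by 0.27 (SE 0.06). Fbln1 rose with hypoxia in knockout cells by 0.29 (SE 0.07, adjusted p = 0.0225, limma). This call was lost when any of 5 libraries (knockout normoxia 1 or 2, knockout hypoxia 1, 2 or 3) was left out (adjusted p 0.0593 to 0.0989). In wild-type cells the change of Fbln1 was 0.14 (SE 0.07, adjusted p = 0.443, limma), which did not pass. Of 5 tested relatives of gelsolin 1 fell at each oxygen level, Capg, which caps actin filaments. It fell by 0.58 (SE 0.04) in hypoxia, and the list medians were -0.19 and -0.06.

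Enzymes that build chondroitin and dermatan sulfate chains, which biglycan and decorin carry, were tested for 23 of 24 genes. In normoxia 3 fell and 0 rose, and in hypoxia 4 fell and 1 rose, with medians of -0.12 and -0.11. Csgalnact1, which starts chondroitin chains, fell by 1.17 (SE 0.10) in normoxia, and the sulfotransferase Chst11 fell by 0.71 (SE 0.07) in hypoxia. The gene that rose in hypoxia was Xylt1, by 1.69 (SE 0.41, adjusted p = 0.018, limma). In normoxia its difference of 1.52 (SE 0.45, adjusted p = 0.0543, limma) did not pass, and Xylt1 was not followed through the alternatives. Ugdh, which makes the UDP-glucuronate for these chains, rose with hypoxia by 0.21 in both wild-type (SE 0.04) and knockout cells (SE 0.03), the former not passing without wild-type normoxia replicate 2 (adjusted p = 0.124, limma).

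Among 16 tested adipogenic factors and adipocyte genes, relatives of Pparg in function, 4 fell and 0 rose in normoxia, and 2 fell and 2 rose in hypoxia, with medians of -0.15 and -0.10. Ebf2 and Ebf1 are transcription factors of the adipocyte lineage. Ebf2 fell by 1.59 (SE 0.10) in hypoxia and Ebf1 fell by 1.27 (SE 0.14) in normoxia. The 2 that rose with genotype in hypoxia were Cd36, a fatty acid transporter, by 1.15 (SE 0.31, adjusted p = 0.0328, limma), and Lpl, the lipoprotein lipase, by 0.34 (SE 0.09, adjusted p = 0.0357). Both calls were lost without single hypoxia libraries, that of Cd36 without any of the 6 (adjusted p 0.0533 to 0.133, limma) and that of Lpl without any but knockout replicate 2 (0.0775 to 0.135), and both were lost with DESeq2 (0.121 and 0.0555). Cebpd rose with hypoxia in knockout cells by 0.84 (SE 0.15). In wild-type cells its change of 0.38 (SE 0.17, adjusted p = 0.329, limma) did not pass. The difference between the genotypes' responses to hypoxia passed for 0 of the 16 genes. The mature adipocyte genes Adipoq and Fabp4 had group means of 0 to 0.68 and 1.14 to 7.83 normalized counts.

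Among 13 partners of TWIST proteins and related transcription factors, 4 fell and 0 rose in normoxia, and 5 fell and 1 rose in hypoxia, with medians of -0.08 and -0.04. Twist1 fell by 1.04 (SE 0.20) in normoxia, which missed the threshold when wild-type normoxia replicate 1 was left out (adjusted p = 0.0543, limma). Zeb1 fell by 0.73 (SE 0.06) in normoxia, and Tcf4 fell by 0.31 (SE 0.06) in hypoxia. The gene that rose in hypoxia was Snai2, by 0.26 (SE 0.07, adjusted p = 0.0367, limma), which was not followed through the alternatives. Of 3 tested Ly6 relatives 1 fell at each oxygen level, with medians of -1.13 and -0.40. The 7 Ly6 relatives in the table summed to at most 1476 normalized counts in wild-type and 1363 in knockout normoxia. A single gene other than Ly6c1 reached 1438 and 1345 in those groups, which left few counts for Ly6c1. The normoxia median is the value of Ly6c1. Ly6c1 fell by 1.13 (SE 0.30) in normoxia and Ly6e fell by 0.19 (SE 0.05) in hypoxia. Both calls were lost without single libraries: Ly6c1 without either wild-type normoxia library or without knockout normoxia replicate 2 or 3 (adjusted p 0.0512 to 0.198), and Ly6e without wild-type hypoxia replicate 1 or any knockout hypoxia library (0.058 to 0.0977).

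**Figure D5:**
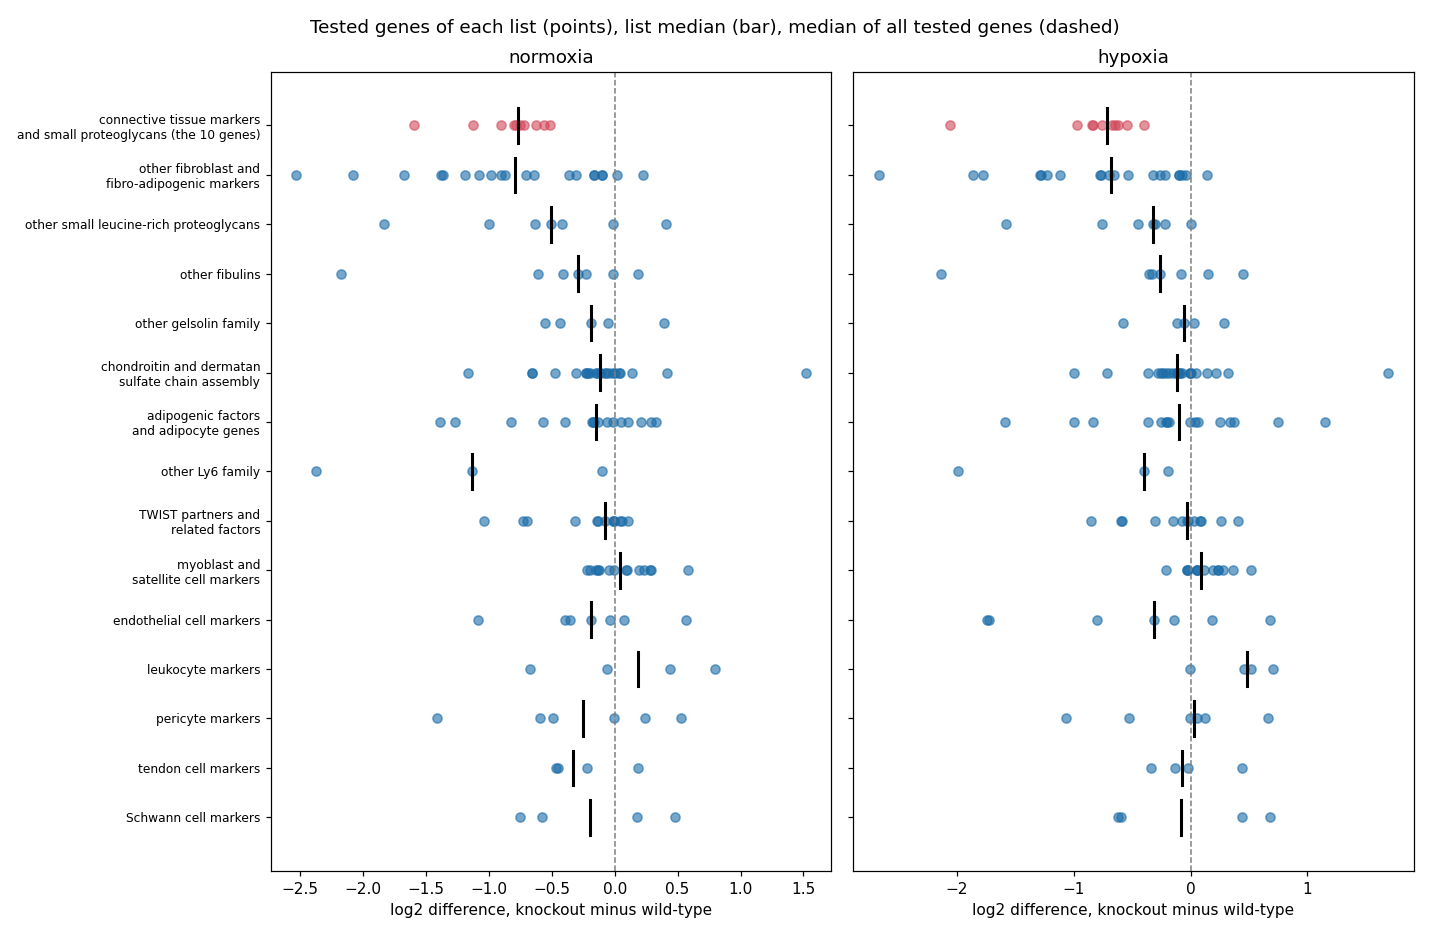
Log2 difference between knockout and wild-type (horizontal axes) for the tested genes of each list, in normoxia and hypoxia. Points are genes, bars list medians, and the dashed line is the median of all tested genes. The 10 genes of the set all lie left of 0, at medians of -0.77 and -0.72, and the myoblast markers lie around 0.

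Markers of other cells were set beside these results. The summed normalized count of 24 fibroblast markers was 154795 to 158223 in wild-type and 133020 to 136928 in knockout normoxia, and 163378 to 169754 against 142929 to 147835 in hypoxia. Most of this was Vim, an intermediate filament gene that is not specific to fibroblasts, with group means of 85319 to 100030 normalized counts and genotype differences of -0.10 at both oxygen levels that did not pass (adjusted p = 0.168 and 0.136, limma). That of 14 myoblast markers was 74280 to 75887 in wild-type and 77611 to 81800 in knockout normoxia, and 70015 to 74349 against 77959 to 79810 in hypoxia. Of those 14, 3 rose and 0 fell in normoxia and 5 rose and 1 fell in hypoxia. Myf5 rose by 0.59 (SE 0.08) in normoxia, Chrna1 rose by 0.19 (SE 0.03) in hypoxia, and Sdc4 fell by 0.21 (SE 0.04) in hypoxia. The fibroblast sums were lower and the myoblast sums higher in knockout than in wild-type libraries without overlap at either oxygen level, and their part in the members' differences was not tested.

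Endothelial cells also carry CD34. The 12 endothelial markers summed to 168 to 171 normalized counts in wild-type and 144 to 175 in knockout normoxia. In hypoxia they summed to 178 to 195 in wild-type and 127 to 155 in knockout cells, without overlap. Cdh5 was at 0 to 9.08 and Pecam1 at 7.76 to 25.0. Of 7 tested 1 fell and 0 rose with genotype at each oxygen level. In hypoxia Esam fell by 1.74 (SE 0.27). The 8 leukocyte markers in the table summed to 139 to 193 in wild-type and 179 to 259 in knockout normoxia. In hypoxia the sums were 117 to 147 against 169 to 195, higher in knockout cells without overlap. Laptm5 gave 81.0 to 215 of these sums, while Lyz2 was at 0 to 7.50. Of 4 tested leukocyte markers 0 fell and 0 rose with genotype at each oxygen level. Among pericyte markers, 7 of 8 in the table, the sums overlapped between genotypes in hypoxia (10173 to 11102 in wild-type, 10037 to 10424 in knockout) and not in normoxia (11222 to 12138 and 10389 to 10781). Most of this was Des, which is also among the 14 myoblast markers. Of 6 tested pericyte markers 2 fell and 0 rose at each oxygen level, with medians of -0.25 in normoxia and 0.02 in hypoxia. Cspg4 fell by 1.41 (SE 0.13) and Mcam fell by 0.60 (SE 0.05) in normoxia, and Kcnj8 was at 0 to 1.55.

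Tendon markers summed to 14515 to 14539 in wild-type and 10022 to 11060 in knockout normoxia, and 12089 to 14671 against 9747 to 11282 in hypoxia. Most of this was Tnc, which fell by 0.47 (SE 0.08) in normoxia, while Tnmd was at 0 to 6.25. Of 4 tested tendon markers 1 fell and 0 rose at each oxygen level. Schwann cell markers summed to 1145 to 1147 against 767 to 818 in normoxia and 1157 to 1250 against 796 to 931 in hypoxia, mostly Pmp22, which fell by 0.59 (SE 0.07) in hypoxia, with Sox10 at 1.07 to 4.10. Of 4 tested Schwann cell markers 2 fell and 0 rose in normoxia, and 2 fell and 1 rose in hypoxia. Ngfr fell by 0.75 (SE 0.12) in normoxia. Mbp rose by 0.68 (SE 0.19) in hypoxia, a call lost without any of 5 hypoxia libraries, wild-type 1 or 3 or knockout 1, 2 or 3 (adjusted p 0.058 to 0.137, limma). The part of these cell types in the members' differences was not tested.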

How the data were processed

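Per the labels, each library used 1 µg of total RNA and a stranded kit. The deposited signal is a read count scaled by the size factor of its library, and undoing that scaling turned 100% of values into whole reads (tolerance 0.01). Per the submitters' processing notes, bcl2fastq, STAR, Picard, HTSeq, RSEM and DESeq2 were used with mm10; versions, the tool that counted and its strand setting are not given in the sources used here. Libraries held 18707697 to 33613328 reads. The chi-square per degree of freedom between libraries of a group was 4.33 to 20.9, above the 1 of pure counting error, so none duplicated another.

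The main test was limma 3.58.1 in R 4.3.3 (variance trend, pseudocount 1, 4 groups, residual degrees of freedom 7). It was also run on simulated counts with the same spread setting for every gene. That run does not show how the test behaves on these data. edgeR 4.0.16 and DESeq2 1.42.0 on recovered reads were among 21 alternatives. Exon lengths and positions are from GENCODE M21 on GRCm38. The members and lists were chosen with earlier results of these data known. All members were named, and of each other list up to 3 called genes with the smallest adjusted p. The comparison of library ranges, the levels per kb, the shared 50-base windows, and the promoter search were added after the files were read. The search length, the motifs and the windows printed were settled after a first look at matches, and all motifs looked at are given. Adipoq, Fabp4, Cd36, Lpl, Xylt1, Snai2, Vim, Myod1, Des and the marker genes given by range were also picked after their values were seen.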

Additional observations from a re-analysis of the deposited data

How the results depend on the processing

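The members' genotype differences were negative in all of the alternatives that gave a value, for 10 of 10 members at each oxygen level. The calls of Bgn, Fbln2, Gsn, Cd34 and Thy1 held in every alternative at both oxygen levels, and that of Ly6a in hypoxia. Of 1027 member values recomputed, 997 kept their side of the threshold, 27 lost a call and 3 gained one (Dcn in hypoxia without a variance trend, Lum in normoxia with a pseudocount of 5 or without knockout hypoxia replicate 2). No called value changed sign. Hypoxia changes took both signs among the alternatives for 4 of 10 members in wild-type and 5 of 10 in knockout cells, none of them called, and the difference between those changes did so for 6 of 10. With only the 2 groups compared, 5 members were called in normoxia instead of 9, with the calls of Ly6a, Dcn, Twist2 and Pparg lost. DESeq2 called 6 there, and 7 were called without a filter, with Dcn (adjusted p = 0.0589, limma) and Twist2 (0.0679) lost. Of the 14729 tested genes 833 fell in the main fit, 555 with only the 2 groups compared and 755 with DESeq2. Without a filter 740 of 22104 fell. Leaving out 1 library at a time gave 6 to 10 calls in normoxia and 6 to 9 in hypoxia, and a group left with 1 library was assumed to vary like the others. Lum and Twist2 gave no value under the filter on a mean of 50, and DESeq2 gave no adjusted p for Lum in 3 comparisons. Of the other named genes, Fbln1 and Ly6e also lost their calls without a variance trend, Ly6c1 without a filter, with only the 2 groups compared or with DESeq2, Mbp and Cd36 without a filter or with DESeq2, Lpl under the same 3 settings as Ly6c1, and Ugdh in wild-type hypoxia without a variance trend or with only the 2 groups compared. Over all genes, the counts of the normoxia genotype comparison fell from 506 risen and 833 fallen to 246 and 532 without wild-type normoxia replicate 1 and to 229 and 439 without replicate 2, and wild-type hypoxia fell from 251 and 69 to 153 and 34 or 143 and 18. Knockout hypoxia fell from 464 and 138 to 288 and 63 without a variance trend, and the genotype comparison in hypoxia from 491 risen to 318 without knockout hypoxia replicate 2. The genotype by oxygen count of 1 was 0 to 4 risen and 0 to 1 fallen. The cause of these changes was not tested. No paired analysis was possible because no label ties a replicate of one group to a replicate of another. The members with the fewest reads per library were Lum (1 to 29) and Twist2 (18 to 84), and what depth contributed to their lost calls was not tested.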
